A study of Sorghum bicolor with 9 samples.

Results

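The genes described here are the sorghum genes in sparsely filled stretches of the chromosomes, away from the chromosome ends. Chromosomes 1 to 10 were divided into windows of 1 Mb, each locus that carries a gene ID (a named locus) was placed by its start, and the named loci of windows with fewer than 10 of them were taken as gene-poor loci. This gave 844 gene-poor loci out of 32931 named loci, or 2.56%, and the other 32087 are the loci of the other windows. The choice used positions alone, so the expression values had no part in it.

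The values come from whole anthers of the field-grown, untreated Sorghum bicolor cultivar M35-1. Stage A1 held meiocytes up to tetrads, stage A2 microspores and stage A3 mature pollen, each with 3 libraries, and the stages were separated by anther length. The authors deposited a single FPKM (fragments scaled by transcript length and by library depth) for each locus and stage, with the 3 libraries already combined. The spread between libraries is thus not known, no difference between stages could be tested, the depth behind each value is unknown here, and loci are not replicates of a stage.

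In grasses the middle parts of the chromosomes around the centromeres are filled largely with transposable elements and packed as heterochromatin, while most genes lie towards the ends of the arms. Meiotic crossovers are rare in these middle parts, so genes there are seldom separated by recombination. In Arabidopsis pollen, the vegetative nucleus loses much of its condensed heterochromatin, whereas the sperm nuclei keep theirs compact. Whole anthers mix these nuclei with the cells of the tapetum and the anther wall, and less RNA per cell cannot be told apart from fewer cells of a type.

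The stage labels were checked on 14 marker genes that the study picked from these libraries. The 6 meiosis genes were highest in A1, the 4 tapetum and pollen wall genes in A2 and the 4 pollen genes in A3. The study's candidate list also holds genes of these kinds that it places later. Of its meiosis genes, XRCC3 peaks there in A2, and copies of MEL2 and RPA1c peak in A3, as does the pollen wall gene WDA1. The 14 markers leave these out, so their accord depends in part on which genes were picked. DMC1 (Sobic.008G010900), the meiotic strand exchange protein, stood at 15.7 FPKM in A1, at 8.05 in A2 and at 3.14 in A3. The OSIPA match Sobic.001G306200 stood at 0.0141 FPKM in A1, was listed at 0 in A2 and stood at 69.5 in A3. Summed over all 40082 loci of the table the FPKM came to 638053 for A1, 672303 for A2 and 815871 for A3. The library descriptions carry a project code, and all 3 A3 libraries have the code that 1 of 3 A1 and 1 of 3 A2 libraries have, so that A3 and this code cannot be told apart.

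Gene-poor windows lay away from both ends of every chromosome. Of 688 windows, 190 (27.6%) held 1 to 9 named loci, 34 held none and 464 held 10 or more. The median was 4 named loci in a gene-poor window and 66.5 in the other windows, with 157 in the fullest. The 190 windows fell into 30 runs of neighbouring windows, counted with the empty windows between them. The longest run of each chromosome covered 9 windows (chromosome 3) to 25 windows (chromosome 8, from 19 to 44 Mb), and these 10 runs held 552 gene-poor loci (65.4%). No chromosome had a gene-poor window at its far end. Chromosome 6 held the largest number of gene-poor loci, 135 in 23 windows, and chromosome 1 the smallest, 52 in 11 windows.

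**Figure D1:**
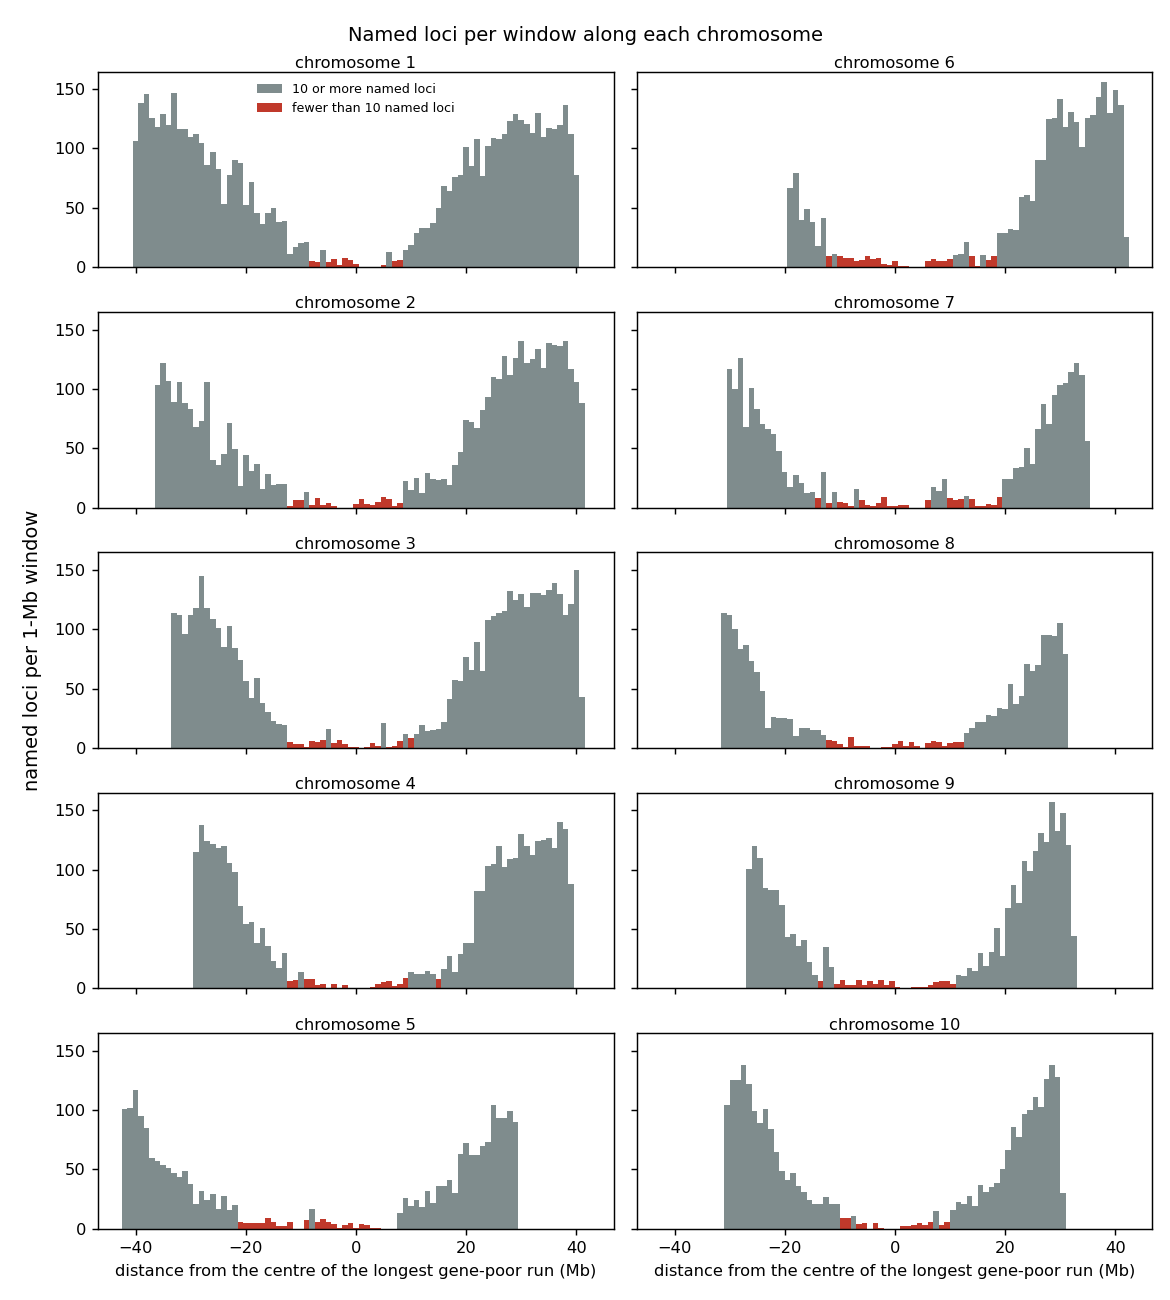
Number of named loci in each 1-Mb window (vertical axis) against the distance of the window from the centre of the longest gene-poor run of its chromosome in Mb (horizontal axis), with windows of fewer than 10 named loci in red and the others in grey. The red windows lie together away from both chromosome ends, and the grey windows reach 157 named loci.

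Gene-poor loci were more often silent, or close to it, than the loci of other windows in all 3 stages. At least 1 FPKM was reached by 314 of 844 (37.2%) at stage A1, 315 (37.3%) at A2 and 355 (42.1%) at A3. In the other windows these shares were 50.9%, 52.0% and 53.9%. The difference was 13.7 percentage points at A1, 14.6 at A2 and 11.8 at A3. It had the same direction in 10 of 10 chromosomes in A1 and A3 and in 9 of 10 in A2, where chromosome 5 had 33.7% for gene-poor loci and 33.6% for the others.

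The same was seen at other levels. A value above 0 was listed for 560 gene-poor loci (66.4%) in A1, 580 (68.7%) in A2 and 627 (74.3%) in A3, against 86.1%, 86.7% and 86.3% of the other loci. In the gene-poor windows 162 loci (19.2%) were listed at 0 in all 3 stages, against 2065 (6.44%) in the other windows, and the gene-poor share was the higher in 10 of 10 chromosomes. Without read counts, a listed 0 cannot be told apart from a level too low to be estimated. The median gene-poor locus stood at 0.0672 FPKM in A1, at 0.0485 in A2 and at 0.228 in A3. The median of the other loci stood at 1.12, 1.27 and 1.55 FPKM in the same order.

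Gene-poor loci were also below the others in the upper part of the distribution. The 75th percentile of gene-poor loci was 7.07 FPKM at stage A1, 7.05 at A2 and 7.39 at A3, against 11.8, 11.8 and 12.8 in the other windows. At least 10 FPKM was reached by 21.2%, 21.6% and 21.1% of gene-poor loci in A1, A2 and A3, against 27.2%, 27.3% and 28.4% of the others. At least 100 FPKM was reached by 15 gene-poor loci (1.78%) in A1, 15 (1.78%) in A2 and 22 (2.61%) in A3, against 3.06%, 2.94% and 3.46%.

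Among loci that reached 1 FPKM the median levels of gene-poor and other loci lay close together, but over all loci with a value above 0 they did not. With loci at 0 in all 3 stages left out, the gene-poor medians were 0.616, 0.607 and 1.20 FPKM over the stages, against 1.65, 1.82 and 2.21 in the other windows. Loci with at least 1 FPKM were taken for each stage by the value of that stage, so the sets differ between stages. The median was then 12.7 FPKM for gene-poor loci in A1, 12.7 in A2 and 10.03 in A3. For the loci of other windows it was 11.4, 11.04 and 11.1 FPKM. The share of these loci with at least 10 FPKM was 57.0%, 57.8% and 50.1% in gene-poor windows and 53.4%, 52.5% and 52.8% in the others. By these 2 measures gene-poor loci thus stood slightly above the others in A1 and A2 and slightly below them in A3. No error is available to judge these small gaps. The gene-poor 90th percentile was lower in every stage, at 54.7, 53.4 and 59.0 FPKM against 65.0, 62.5 and 67.8. In total the 844 loci held 1.81% of the summed FPKM of named loci in A1, 1.66% in A2 and 1.69% in A3, while they make up 2.56% of these loci.

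**Figure D2:**
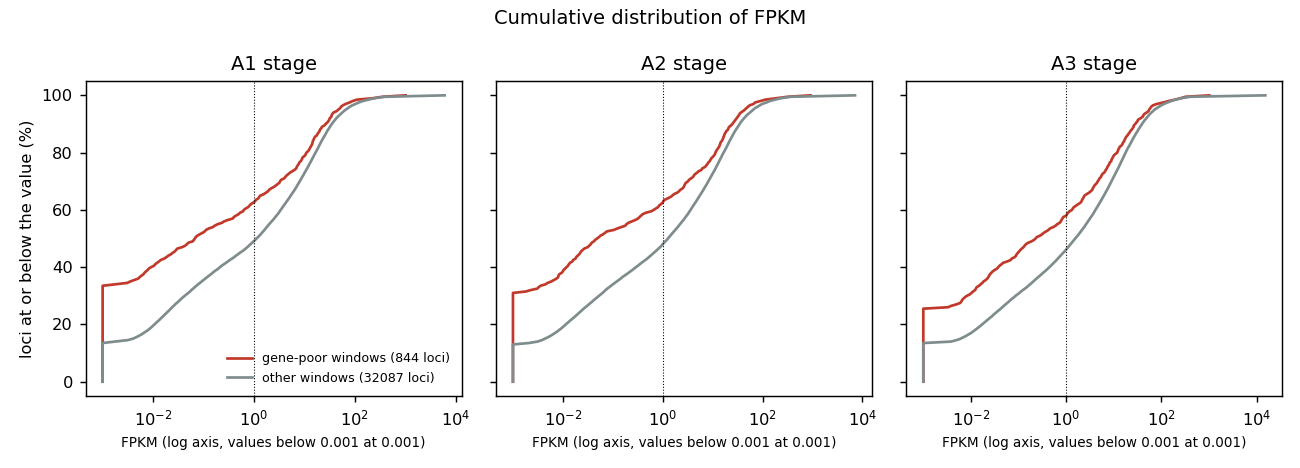
Percent of loci at or below a given FPKM (vertical axis) against FPKM on a log axis, with values below 0.001 drawn at 0.001, for 844 gene-poor loci (red) and 32087 loci of other windows (grey), 1 panel per stage, with the dotted line at 1 FPKM. The red line lies above the grey line at 1 FPKM in every stage, by 13.7, 14.6 and 11.8 percentage points.

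Across the whole range of windows, the share of expressed loci was lowest where 5 to 9 named loci shared a window and highest where 80 or more did. In A1, at least 1 FPKM was reached by 38.1% of 226 loci in windows with 1 to 4 named loci and by 36.9% of 618 in windows with 5 to 9. It was 42.5% of 1015 loci with 10 to 19 per window, 41.3% of 2871 with 20 to 39, 44.7% of 5615 with 40 to 79 and 54.0% of 22586 with 80 or more. In A3 these shares ran 45.1%, 40.9%, 46.2%, 45.4%, 48.6% and 56.6% over the same classes. The sparsest class of windows was thus not the one with the lowest share of expressed loci. The share at 0 in all stages was 20.4%, 18.8%, 12.0%, 10.9%, 9.21% and 4.93%, lower in each denser class. Just inside the limit, 39.3% of the 117 loci in windows of 9 reached 1 FPKM in A1, and just outside it 46% of the 50 loci in windows of 10 did so.

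**Figure D3:**
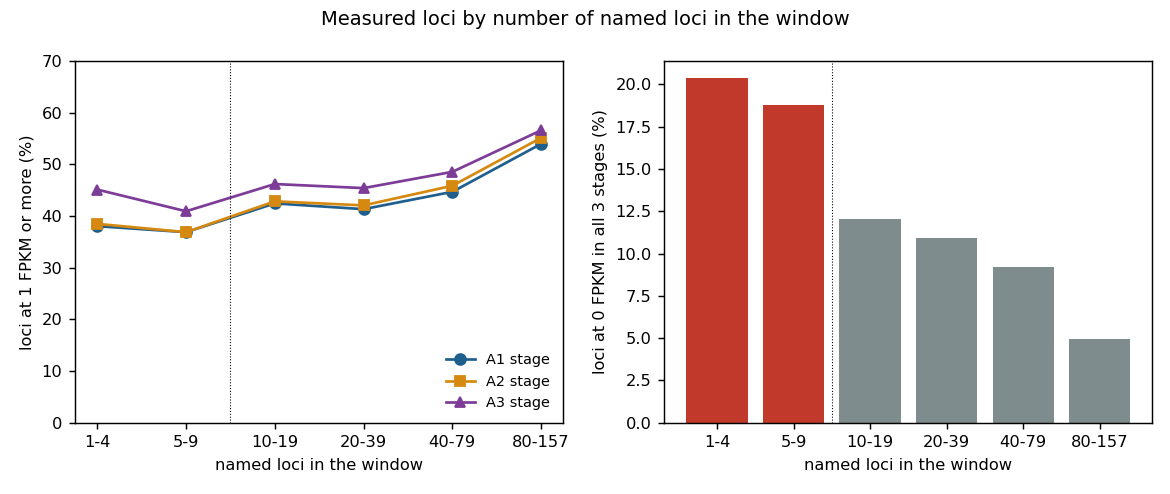
Left, percent of loci with at least 1 FPKM in A1 (circles), A2 (squares) and A3 (triangles), and right, percent of loci listed at 0 FPKM in all 3 stages, against the number of named loci in the window, with the dotted line between gene-poor and other windows. The left shares are lowest for windows with 5 to 9 named loci (36.9% in A1), and the right shares go from 20.4% in the sparsest to 4.93% in the densest windows.

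Chromosomes differed in how much of their gene-poor middle was expressed. At least 1 FPKM in at least 1 stage was reached by 32.7% of the gene-poor loci on chromosome 1 and by 61.0% on chromosome 4, while the other loci of these chromosomes reached 65.3% and 64.8%. Over all 10 chromosomes the share was 45.9% (387 loci) against 60.7%. On chromosome 5, where the other windows also held few expressed loci, the values were 38.6% and 41.8%. The share of gene-poor loci at 0 in all stages ran from 6.90% on chromosome 9 to 44.2% on chromosome 1. Within the longest run of each chromosome 47.5% of 552 loci reached 1 FPKM in a stage, and outside these runs 42.8% of 292 did. Of these 292 loci, 58 lay in a single run of chromosome 5 (21 to 34 Mb), where 13 reached it. The gap thus depends on that run and is no general trait of loci outside the longest runs.

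Expressed loci were scattered over most gene-poor windows. At least 1 locus with 1 FPKM or more was found in 157 of the 190 windows, and at least 1 with 10 FPKM or more in 121. In 33 windows no locus reached 1 FPKM, and in 10 of these every locus was listed at 0. Among the other windows 1 had no locus at 1 FPKM. The summed FPKM was uneven, and the 10 gene-poor windows with the greatest sums held 46.4% of the gene-poor total in A1 and 39.5% in A3. The window from 20 to 21 Mb of chromosome 7 led in A1 with a sum of 1042 FPKM, and that from 40 to 41 Mb of chromosome 3 led in A3 with 1076 FPKM. In both windows nearly the whole sum came from 1 gene, described below.

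Several properties that the choice of loci did not use differed as well. Gene IDs of the annotation are mostly numbered in steps of 100 along a chromosome, and other endings fall between these steps. Among loci with 1 gene ID, 504 gene-poor loci (61.2%) had an ID ending in 00, against 85.4% in the other windows. Of these 504, 48.6% reached 1 FPKM at stage A1, 49.0% at A2 and 55.8% at A3, against 54.9%, 56.1% and 57.9% in the other windows. Of the 320 gene-poor loci with another ending, 20.9% reached 1 FPKM in at least 1 stage and 34.4% were at 0 in all stages, against 26.5% and 18.7% in the other windows. The part of the ID kind in the lower share of expressed gene-poor loci was not tested.

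The kind of locus ID moved with the level much more strongly. A row whose locus ID was made by StringTie, the program that assembled the transcripts, was found for 489 gene-poor loci (57.9%) and for 77.9% of the others. At least 1 FPKM in a stage was reached by 78.9% of these gene-poor loci and by 77.9% of their counterparts. By stage the gene-poor share was the lower in A1 (64.0% against 65.3%) and A2 (64.2% against 66.7%) and the higher in A3 (72.6% against 69.1%). Of the 355 gene-poor loci that kept an ID of the annotation 1 reached 1 FPKM, and 0.338% of their counterparts did so. This ID kind is therefore itself a readout of expression and cannot be told apart from the level.

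Gene-poor loci were about as long as others at the median but held more very long ones. Some rows of the table share their position with other rows (106 gene-poor loci, 12.6%, and 22.2% of the others), so lengths are given for loci with a position of their own. The median span was 2822 bases for gene-poor loci and 2876 for the others, the 90th percentile 14852 and 7644 bases. A span of 20 kb or more was found for 42 gene-poor loci (5.69%) and for 0.621% of the others. Among these loci with their own position, 33.7%, 34.3% and 39.3% of gene-poor loci reached 1 FPKM in A1, A2 and A3, against 46.1%, 47.5% and 50.0%. Of these, gene-poor loci with 1 FPKM in a stage had a median span of 4904 bases and the rest 1956.5, against 4105 and 1741.5. With shared positions included, gene-poor loci with an ID made by StringTie had a median span of 5673 bases, and those of the annotation 1938. The part of assembly in span was not tested. Over all loci, shared positions included, long ones were more often expressed in both sets. Below 2 kb the share with 1 FPKM in a stage was 19.5% against 31.3%, from 2 to 5 kb 42.7% against 62.6%, from 5 to 20 kb 69.0% against 80.6%, and from 20 kb on 79.3% against 81.8%. The median distance to the nearest named locus was 43410 bases for gene-poor loci and 1085 for the others, which follows in part from how the windows were chosen. The lower quartile of this distance was 2578.5 bases for gene-poor loci and 22 for the others. Some gene-poor loci thus lay close to a named neighbour.

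The gene-poor windows held more assembled loci without a gene ID than named ones. There were 928 of them, 1.10 for each named locus, against 5818, or 0.181 for each, in the other windows. At least 1 FPKM in a stage was reached by 43.6% of the unnamed loci in gene-poor windows and by 50.9% in the others, and 10 FPKM by 4.203% and 7.68%. Their median stood at 0.391 FPKM in A1, at 0.504 in A2 and at 0.427 in A3. In the 34 windows with no named locus lay another 34 unnamed loci, of which 8 reached 1 FPKM, with 89.2 FPKM as the highest value.

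Between the stages, few gene-poor loci differed at least 2-fold between A1 and A2 and more of them differed in A3. Folds were taken after adding 0.5 FPKM to each value, over loci with a value above 0 in at least 1 stage. These were 682 gene-poor loci and, over all named loci, 30704. From A1 to A2, 3 gene-poor loci (0.440%) were at least 2-fold higher, where 2.91% of all 30704 were. At least 2-fold lower were 6 (0.880%), where 0.743% of all 30704 were. From A2 to A3, 84 loci (12.3%) stood at least 2-fold above and 42 (6.16%) at least 2-fold below, beside 16.5% and 12.6% of all. From A1 to A3, 84 loci (12.3%) stood at least 2-fold above and 47 (6.89%) at least 2-fold below, beside 17.4% and 12.6% of all. The comparisons share stages, so their counts are not independent. The median log2 value from A2 to A3 was 0.02 for gene-poor loci and 0.01 for the others.

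Many gene-poor loci lay near 0, where the fold cannot be reached with 0.5 FPKM added, so the count was also taken at higher levels. Over loci with a mean of at least 1 FPKM, 59 of 352 gene-poor loci (16.8%) were at least 2-fold higher in A3 than in A2 and 36 (10.2%) at least 2-fold lower. For the other windows the shares were 22.0% and 18.4%. At this level too, the gene-poor share was below that of the other windows in both directions. A locus can pass this mean through a single high stage, and it is then 2-fold apart by the filter itself. These shares are therefore no independent support for the counts above. A 2-fold difference between any pair of stages was found for 149 gene-poor loci (21.8%) and for 34.0% of the others. Of these 149, 90 (60.4%) were highest in A3, 36 (24.2%) in A1 and 23 (15.4%) in A2, against 54.0%, 26.2% and 19.7% in the other windows.

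Most expressed gene-poor loci were expressed throughout. Of the 387 loci with 1 FPKM or more in a stage, 284 (73.4%) had it in all 3 stages, close to the 73.7% in the other windows. In A3 alone it was reached by 62 loci, or 16.0% of the 387, against 12.4% of such loci in the other windows. Over all loci, silent ones included, these shares were 7.35% and 7.53%. In A1 and A2 but not in A3 it was reached by 20 loci, or 5.17% of the 387 against 7.98%, and 2.37% against 4.85% of all loci. At least 10 FPKM in every stage was found for 148 gene-poor loci (17.5%) against 21.1%. Over the 682 loci, Spearman's coefficient was 0.960 between A1 and A2 and 0.798 between A2 and A3, beside 0.970 and 0.809 over the loci of other windows. Over loci with a mean of at least 1 FPKM the order was the opposite, with 0.990 and 0.681 for 352 gene-poor loci and 0.969 and 0.599 for the others. These coefficients describe loci that share the same libraries and carry no p-value.

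**Figure D4:**
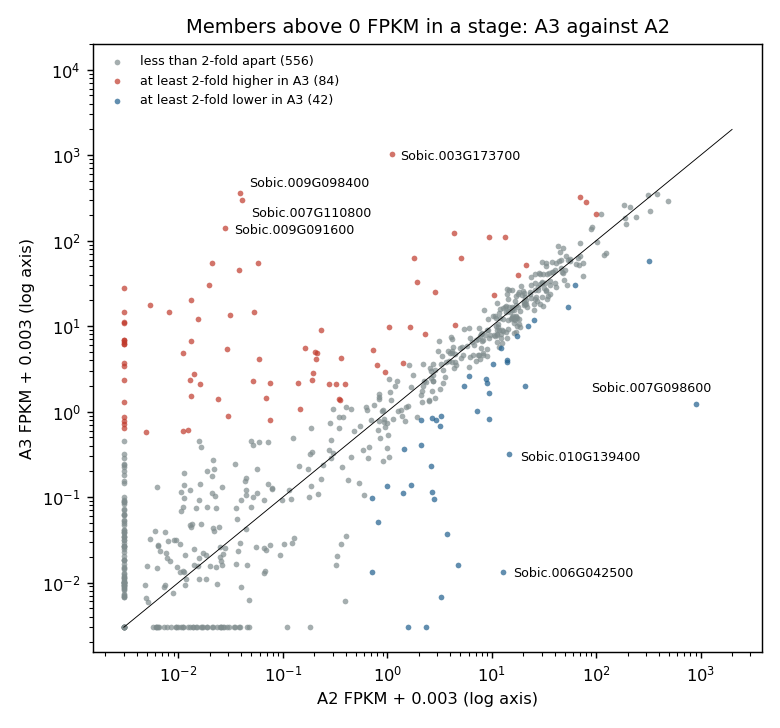
FPKM in A3 (vertical log axis) against FPKM in A2 (horizontal log axis), each with 0.003 added, for the 682 gene-poor loci above 0 in a stage, with a line at equal values. The 84 loci at least 2-fold higher in A3 (red) reach from 0 in A2 up to 1021 FPKM in A3, and the 42 at least 2-fold lower (blue) include Sobic.007G098600 far from the rest.

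Some gene-poor genes were near 0 early and high in A3. Below 1 FPKM in A1 and A2 and at 10 FPKM or more in A3 stood 17 gene-poor loci (2.01%), beside 1.96% of the loci in other windows. For most of the genes named here the sources used give no function, so they are described by their ID, their position in genome version v3.0.1 and their values. Sobic.003G173700 (chromosome 3, 40407298 to 40410293) stood at 0.681 FPKM in A1, at 1.10 in A2 and at 1021 in A3, a log2 difference of 9.32 from A2 to A3. It was the highest gene-poor value of A3, in a window with 2 named loci. The other locus of that window, Sobic.003G173800, stood at 0.0975, 0.0181 and 54.9 FPKM. Both genes of this window were thus near 0 in the earlier stages and high in A3.

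Other late genes lay on different chromosomes. Sobic.009G098400 (chromosome 9, 36828333 to 36830533) stood at 0.0277 FPKM in A1, at 0.0362 in A2 and at 366 in A3. Sobic.007G110800 (chromosome 7, 40208433 to 40209473) stood at 0.0295, 0.0377 and 295.5 FPKM in the same order. Sobic.009G091600, in a window of 3 named loci, stood at 0.0677, 0.0250 and 140 FPKM. These 3 were the gene-poor loci with at least 100 FPKM in A3 and less than 1 FPKM in both earlier stages, since Sobic.003G173700 was just above 1 FPKM in A2. Below them came Sobic.003G164700 with 0.0449 FPKM at stage A1, 0.0546 at A2 and 55.4 at A3, and Sobic.006G037100 with 0.0620, 0.0352 and 45.0 FPKM. The remaining 11 of the 17 lay between 10.8 FPKM (Sobic.010G138350) and 29.97 FPKM (Sobic.004G134600) in A3, and they came from chromosomes 2, 3, 4, 5, 6, 9 and 10.

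Further genes were expressed early and stood higher in A3. Sobic.006G050500 had 94.3 FPKM at stage A1, 69.9 at A2 and 325 at A3. Sobic.004G133500 had 14.6, 13.4 and 112 FPKM, and Sobic.009G089800 had 10.996, 9.43 and 110.1 FPKM. The log2 difference from A2 to A3 was 2.21 for Sobic.006G050500, 3.02 for Sobic.004G133500 and 3.48 for Sobic.009G089800.

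Genes that were high early and low in A3 were few in gene-poor windows. At 10 FPKM or more in A1 or A2 and below 1 FPKM in A3 stood 2 loci (0.237%), against 1.21% in the other windows. They were Sobic.010G139400, with 12.4 FPKM at stage A1, 14.6 at A2 and 0.315 at A3, and Sobic.006G042500, with 6.41, 12.7 and 0.0103 FPKM. By far the largest difference of this kind missed the limit narrowly. Sobic.007G098600 (chromosome 7, 20096662 to 20098851) stood at 1014 FPKM in A1, at 909 in A2 and at 1.21 in A3, a log2 difference of -9.06 from A2 to A3. It was the highest gene-poor value of A1 and of A2 and held nearly all of its window's sum.

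Other loci were lower in A3 but not near 0. Sobic.007G112100 stood at 331 FPKM in A1, at 318 in A2 and at 58.1 in A3, and its neighbour Sobic.007G112200, 1393 bases away, at 34.2, 29.1 and 18.2 FPKM. Sobic.004G133600 stood at 34.1 FPKM in A1, at 20.7 in A2 and at 1.97 in A3, while its neighbour Sobic.004G133700 stood at 51.0, 40.9 and 28.5 FPKM. Both pairs were named because their values moved in the same direction in both steps, so their likeness is no result.

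The 9 gene-poor loci that differed 2-fold between A1 and A2 were all of low abundance. Sobic.002G148166 had the highest value among them, with 6.90 FPKM at stage A1, 0.739 at A2 and 1.20 at A3. Sobic.006G034300 had 1.97, 0.0761 and 0.125 FPKM. The study names this gene for its decrease from A1 to A2 in these same samples, so its direction is no independent evidence. Sobic.008G090100 had 1.89 FPKM at stage A1, 0.137 at A2 and 2.14 at A3, so that A2 was the low stage. Sobic.004G132600 had 1.10 FPKM at stage A1, 0.00604 at A2 and 0.0287 at A3, and Sobic.004G135000 had 0.621 FPKM in A1 with both later stages listed at 0. The loci higher in A2 were Sobic.009G092601, at 1.57 FPKM in A2 and listed at 0 in A1 and A3, Sobic.006G041700 with 0.699, 2.70 and 0.111 FPKM, and Sobic.005G114201 with 0.188, 1.39 and 0.894 FPKM. The ninth, Sobic.004G136600, had 0.949 FPKM at stage A1, 0.207 at A2 and 4.80 at A3, and was added after its values were seen.

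**Figure D5:**
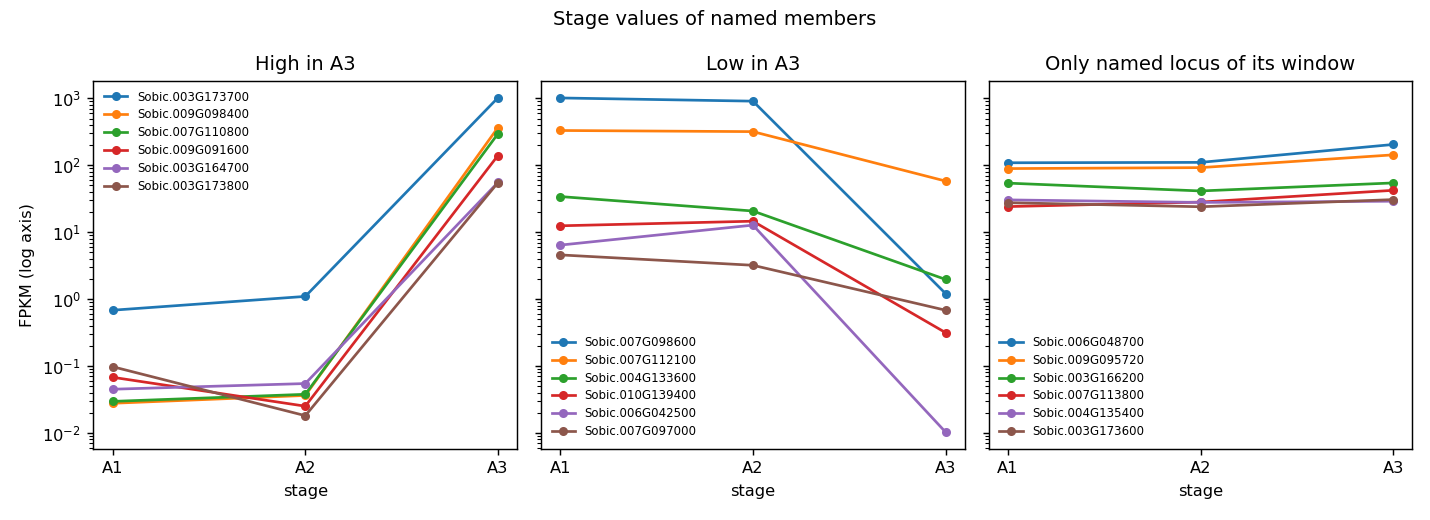
FPKM on a log axis in the stages A1, A2 and A3 for 6 loci high in A3 (left), 6 loci lower in A3 (middle) and 6 loci that were the only named locus of their 1-Mb window (right), 1 line per locus. Sobic.003G173700 goes from 0.681 in A1 to 1021 FPKM in A3 and Sobic.007G098600 from 1014 to 1.21 FPKM, while the loci on the right stay between 24.0 and 204 FPKM.

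Several of the most abundant gene-poor genes stayed within 2-fold between the stages. Sobic.005G112800, in a window of 3 named loci on chromosome 5, stood at 570.3 FPKM in A1, at 482 in A2 and at 289 in A3. Sobic.002G149550 stood at 365, 384 and 348 FPKM, and Sobic.009G093200 at 364, 311 and 344 FPKM. Sobic.009G097500, a locus of 204 bases, stood at 350 FPKM in A1, at 328 in A2 and at 222 in A3. FPKM are scaled by length, and how well this holds for so short a locus was not tested. Of these 4, Sobic.005G112800 came nearest to a 2-fold difference, with a log2 value of -0.98 from A1 to A3. Sobic.008G092600, the highest gene-poor locus of chromosome 8, had 90.1, 102 and 96.4 FPKM.

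A gene without any named neighbour in its window could be well expressed. Of the 30 windows that held a single named locus, 15 had it at 1 FPKM or more in a stage, 10 at 10 FPKM or more, and 7 had it listed at 0 throughout. Sobic.006G048700 stood at 109 FPKM in A1, at 110.4 in A2 and at 204 in A3. Sobic.009G095720 had 89.2, 92.2 and 143 FPKM, and Sobic.003G166200 had 54.1, 41.3 and 54.4 FPKM. Sobic.007G113800, Sobic.004G135400 and Sobic.003G173600 lay between 24.0 and 42.2 FPKM in all stages, and Sobic.003G170900, Sobic.007G101800, Sobic.007G113900 and Sobic.009G096100 between 12.1 and 17.5 FPKM. All 10 differed less than 2-fold between any stages, with Sobic.006G048700 nearest to it at a log2 difference of 0.90 from A1 to A3.

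Of 83 gene IDs that the study singled out, 2 were gene-poor loci, Sobic.006G034300 above and Sobic.007G097000. Gene-poor loci make up 2.56% of all named loci, so this count is no result about them. Sobic.007G097000 (chromosome 7, 18105181 to 18112290) matches rice OsRAD21, and RAD21 proteins are subunits of cohesin, the ring that holds sister chromatids together in mitosis and meiosis. It stood at 4.57 FPKM in A1, at 3.20 in A2 and at 0.681 in A3. The table gives the same position to Sobic.007G097100, which stood at 4.49, 4.77 and 0.0132 FPKM, so reads from these overlapping loci may be hard to assign. Both were lower in A3, and their order differed between A1 and A2. The study placed Sobic.007G097000 in a group that declines in A3 of these same samples, so its direction is no independent evidence. Sobic.010G139400, Sobic.002G149550 and Sobic.002G148166 also lay 0 bases from a named locus. Their reads may be hard to assign too.

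Descriptions by match to Arabidopsis or rice were at hand for 9 gene-poor loci, all on chromosomes 1 and 2, from a list that the study chose on these samples for differing between stages. Their directions are thus no independent evidence. Higher in A3 were Sobic.002G146000, a match of cinnamoyl CoA reductase 1 of lignin synthesis, with 0.385 FPKM at stage A1, 1.03 at A2 and 9.85 at A3, and Sobic.002G148700, a heavy metal transport/detoxification protein, with 0.115, 0.0557 and 4.11 FPKM. Also higher in A3 were Sobic.001G263900, a zinc-binding dehydrogenase, with 0.0636, 0.0722 and 2.14 FPKM, and Sobic.001G261600, a cellulase by its rice match, with 0.0795, 0.0662 and 1.43 FPKM.

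Lower in A3 stood the other 5 described loci. Sobic.001G261573, of the pentatricopeptide repeat family whose members bind organelle RNA, had 1.85 FPKM at stage A1, 3.27 at A2 and 0.876 at A3. Sobic.001G263500, a glycosyl hydrolase, had 3.42, 2.63 and 0.229 FPKM, and Sobic.001G263100, of a calcium-binding endonuclease/exonuclease/phosphatase family, had 4.01, 2.94 and 0.790 FPKM. Sobic.002G146601, of an uncharacterised membrane protein family, had 8.91, 9.38 and 0.827 FPKM. Sobic.002G150032 matches the beta subunit of an RNA polymerase that plants encode in the chloroplast genome, and it had 56.8 FPKM at stage A1, 54.3 at A2 and 16.7 at A3. Whether its reads came from the chloroplast copy was not tested.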

How the data were processed

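RNA of sorghum anthers was prepared with a stranded total RNA kit in 9 libraries, 3 for each of 3 stages. The authors filtered and trimmed the reads, screened out rRNA (Bowtie2 2.2.9), mapped what was left to Phytozome genome version v3.0.1 (STAR), and ran StringTie 1.3.3b and then cuffdiff. They deposited FPKM, with 1 value per locus and stage and the libraries combined. Strand use in counting is not given in the sources used here.

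Everything else was computed with python 3.11.15, numpy 2.4.6, pandas 2.3.3 and matplotlib 3.10.9. A locus with several gene IDs was 1 locus. Log2 values and 2-fold counts were taken after adding 0.5 FPKM. Each deposited start was raised by 1, after which 736 named loci met a RefSeq start, against 163 before. The counting was tested on simulated data.

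The loci, lists and named-gene rule were chosen with earlier results of these data known. Named are the 5 highest loci of each stage and for each pair of stages, the 5 with the greatest log2 difference upwards and downwards. To these come loci that the study names, sole loci of a window above 10 FPKM, the highest of each chromosome and up to 5 adjacent pairs at 10 FPKM or more that moved together. The text gives most of these 60, and the described loci, the loci high in A3 alone and those called 2-fold between A1 and A2 were added after their values were seen. Tests over replicates (limma, leaving out or blocking on replicates) need values per library and were not run. Gene lists by description were not counted, since 12 of 844 loci had an entry in the part of the study's list used here, and promoter motifs were not searched. Alternatives were other window sizes, limits and placements, pseudocounts, filters, folds and scalings.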

Additional observations from a re-analysis of the deposited data

How the results depend on the processing

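No paired analysis was possible because the table gives 1 value per stage and its columns carry no replicate numbers, and for the same reason no replicate could be left out. Of 178 alternative values, 128 stayed near the main value. The limit was 1.5 times for levels and counts, and the 95% counting interval for shares of loci. In 74 of 75 alternative levels and shares gene-poor loci stood below the loci of other windows. The exception was the share with 1 FPKM in A3 among loci with an ID made by StringTie, 72.6% against 69.1%, an alternative chosen after seeing the data. The 75 values do not include the levels among loci at 1 FPKM or more in the same stage. There the gene-poor medians stood above the others in A1 (12.7 against 11.4 FPKM) and A2 (12.7 against 11.04). In A3 they stood below (10.03 against 11.1).

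With fewer than 5 named loci per window there were 226 loci, with a median of 0.403 FPKM in A3, and with fewer than 20 there were 1859, with medians of 0.147, 0.135 and 0.415 FPKM in A1, A2 and A3. Over loci above 0 in a stage the medians were 0.616, 0.607 and 1.20 FPKM, against 1.65, 1.82 and 2.21 in the other windows. In place of above 0, at least 0.1 FPKM was reached by 47.7%, 47.0% and 54.6%, at least 1 FPKM by 37.2%, 37.3% and 42.1%, and at least 10 FPKM by 21.2%, 21.6% and 21.1%. The share with 1 FPKM in A1, A2 and A3 was also recomputed in ways chosen after seeing the data. It was 48.6%, 49.0% and 55.8% for IDs ending in 00, 65.3%, 64.3% and 67.2% for loci of 5000 bases or more, and 64.0% and 64.2% in A1 and A2 for IDs made by StringTie. For loci with their own position it was 33.7% in A1.

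The numbers of loci at least 2-fold higher and lower from A1 to A2 were 8 and 12 with a pseudocount of 0.1 and 1 and 3 over loci with a mean of 1 FPKM. In the order A1 to A2, A2 to A3 and A1 to A3, higher before lower, they were 1, 2, 25, 7, 28 and 10 with fewer than 5 loci per window, 25, 11, 227, 130, 237 and 136 with fewer than 20, and 1, 2, 55, 16, 51 and 15 at 4-fold. The share of gene-poor loci was below that of the other windows in 16 of 16 settings for 5 of these 6 counts. For loci lower in A2 than in A1 it was below in 3 of 16. The size of the gap varied. At 4-fold the shares higher in A3 than in A2 were nearly equal, 8.06% against 8.24%. Those lower in A3 than in A2 were 2.35% against 5.26%.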
